A study of Homo sapiens with 6 samples.

Results

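The genes of the DNA replication machinery were examined in CUTLL1 cells after knockdown of AURKB, the kinase of the chromosomal passenger complex. The set holds 43 genes chosen by name for their function, with earlier results of these data known. Their rows were taken from the deposited gene table by symbol: 43 of the 50868 genes listed. All 43 passed the filter on low counts. CUTLL1 is a human cell line from T-cell acute lymphoblastic leukaemia, known to carry a translocation that joins NOTCH1 to the T-cell receptor beta locus. Both arms were CUTLL1 cultures infected with a lentivirus that expresses a short hairpin RNA (shRNA), kept under puromycin for 48 h and harvested for total RNA. The shAURKB arm received a hairpin against AURKB and the shGFP arm a control hairpin named for GFP, and no other allele or agent separates the arms in the labels. Each arm held 3 libraries, which the series describes as biological replicates. The p-values set the difference between the arms against the spread between libraries of the same arm. The sources used here do not give the hairpin sequences or the number of hairpins per target.

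Replication starts at origins that the origin recognition complex (ORC) marks. In G1, ORC, CDC6 and CDT1 load the MCM2-7 helicase onto DNA, and at the G1/S transition CDC45 and the GINS complex join it to form the active helicase, with MCM10 acting at the step of activation. Polymerase alpha with its primase lays down primers, polymerase epsilon extends the leading strand and polymerase delta the lagging strand, both held on DNA by the PCNA clamp that the RFC complex loads. Many of these genes are textbook targets of E2F transcription factors, which RB family proteins hold in check until cyclin E and CDK2 are active.

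The promoters of these genes were read first, because the E2F site is the sequence feature that the set is best known to share. RefSeq start-site windows of GRCh38.p14, each running from 250 bases before to 50 after a start, were available for 35 of the 43 genes, as 44 windows. An E2F match was any of TTTCCCGC, TTTCGCGC, TTTGCCGC or TTTGGCGC on either strand. A match lay in 19 of the 44 windows (43.2%), belonging to 18 genes, against 3.31% of the 35116 windows of all genes in the same reference table. The 28-base stretches that follow show the match in capitals for members from each step of the process, 5′ to 3′ on the strand of the gene. Where the capitals begin with GC the motif lies on the opposite strand.
MCM2 (chr3:127598403-127598430, plus strand): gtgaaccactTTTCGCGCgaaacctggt
MCM6 (chr2:135876516-135876543, minus strand): attggtcaggTTTGGCGCgaaatctcca
MCM7 (chr7:100101389-100101416, minus strand): gggggcgacgTTTCGCGCcaatttcggt
CDT1 (chr16:88803744-88803771, plus strand): cagggcgcccGCGGGAAAtttggcggga
CDC6 (chr17:40287876-40287903, plus strand): gccattcggaTTTGGCGCgagcgcggct
GINS1 (chr20:25407668-25407695, plus strand): gctttgttcgGCGCCAAAgcgcggagcg
POLA1 (chrX:24693771-24693798, plus strand): tcatcacaggGCGCCAAAcgcgcgtccg
POLE (chr12:132687343-132687370, minus strand): gggtgggagcGCGCCAAAtttctcccct
POLE2 (chr14:49688202-49688229, minus strand): tgcggcggtgGCGCCAAAtcgcaaatat
RFC3 (chr13:33818084-33818111, plus strand): tttggagctcGCGGGAAAacttgtctct
PCNA (chr20:5126664-5126691, minus strand): agcgtcagggGCGGGAAAaggcgtgcgt
LIG1 (chr19:48170441-48170468, minus strand): cttcacccctTTTCCCGCcctcctccca
UHRF1 (chr19:4909477-4909504, plus strand): ccgagttttcGCGGGAAAaaaatcagag
E2F1 (chr20:33686388-33686415, minus strand): gcaaaaaggaTTTGGCGCgtaaaagtgg

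The MCM2 and MCM6 stretches hold overlapping matches on both strands, of which 1 is capitalised. CCAAT, the letters of the NF-Y box (either strand), lay in 56.8% of the members' windows against 34.6% of all windows. CACGTG, the palindromic E-box bound by basic helix-loop-helix factors, lay in 11.4% against 7.26%. TTTGAA, the letters of the cell-cycle homology region (either strand), lay in 0 of 44 against 15.2%. The median GC content was 66.7% in the members' windows and 58.7% in all windows, and GC content moves with how often such letters occur. A match is a description of the letters and not a site shown to be bound.

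For 3 of the members whose RNA differed between the arms, the 250 bases before the start follow in full, with matches to the E2F, CCAAT and CACGTG letters in capitals. They are shown so that their unequal content can be seen: POLE has an E2F match and 2 overlapping CCAAT matches on opposite strands, MCM10 has 2 CCAAT matches, and RPA1 has 1 CACGTG and 1 CCAAT.
POLE (chr12:132687343-132687592, minus strand): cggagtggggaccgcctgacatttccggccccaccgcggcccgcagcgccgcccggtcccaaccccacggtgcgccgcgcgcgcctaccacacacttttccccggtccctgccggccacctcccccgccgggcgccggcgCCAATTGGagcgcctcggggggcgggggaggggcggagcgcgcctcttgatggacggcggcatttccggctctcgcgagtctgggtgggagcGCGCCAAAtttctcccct
MCM10 (chr10:13161308-13161557, plus strand): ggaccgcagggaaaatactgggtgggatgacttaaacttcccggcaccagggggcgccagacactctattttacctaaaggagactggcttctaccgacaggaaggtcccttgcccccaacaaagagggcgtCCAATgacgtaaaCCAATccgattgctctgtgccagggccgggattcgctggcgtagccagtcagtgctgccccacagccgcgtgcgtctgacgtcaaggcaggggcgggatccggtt
RPA1 (chr17:1829755-1830004, plus strand): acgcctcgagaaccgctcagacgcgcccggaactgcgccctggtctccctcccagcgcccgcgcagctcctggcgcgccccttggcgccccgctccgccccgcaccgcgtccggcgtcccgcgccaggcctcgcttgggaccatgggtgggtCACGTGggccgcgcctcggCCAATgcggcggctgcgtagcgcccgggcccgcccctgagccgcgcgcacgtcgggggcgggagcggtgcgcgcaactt

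The members' differences were also read by E2F match, as a description with no test. The 18 genes with a match had a median log2 difference (shAURKB minus shGFP) of 0.02, with 1 gene called by the test described next. The 17 genes without a match had a median of 0.00, with 3 called. Over all tested genes 23.3% were called. Members without a window, the called MCM5 among them, are in neither group. SLBP, the fourth called gene with a window, had no match to the E2F, CCAAT or CACGTG letters in its 250 bases.

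The libraries held 10154187 to 11922979 counts each, and the members took 0.86% to 0.88% of them in every library. Levels are given in CPM, the share of a library's reads on a common scale after TMM normalisation, unless FPKM is named. AURKB itself (ENSG00000178999, GRCh38 chr17:8204733-8210600, minus strand) stood at 100, 97.0 and 107 CPM in shGFP replicates 1 to 3 and at 39.8, 43.9 and 36.0 in shAURKB replicates 1 to 3. Its log2 difference was -1.35 ± 0.08 (SE), a 2.54-fold lower level, with adjusted p = 0.000254 by edgeR's quasi-likelihood test. Marker genes were summed in CPM of the total count, without TMM factors. The 9 T-lineage markers summed to 1975 to 2124 in the controls and 2308 to 2424 in shAURKB. Single markers differed in direction: NOTCH1 was at 577.7 to 616.7 in the controls and 753.9 to 788.2 in shAURKB, and NOTCH3 at 48.75 to 52.58 and 8.424 to 10.91 (both named after their values were seen). The 4 B-cell markers summed to 22.23 to 27.92 in the 6 libraries, most of it CD79A, with MS4A1 at 0 in each, and the 5 myeloid markers to at most 1.09. The 9 markers of fibroblast and epithelium summed to 27.16 in shGFP replicate 1 and to 0.6484 to 1.289 in the other libraries. The part of these shifts in the results was not tested. In bulk RNA, fewer cells of a type or phase and less RNA per cell cannot be told apart.

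Most replication genes differed little between the arms. Of the 43 members, 4 rose in shAURKB (MCM5, MCM10, RPA1 and SLBP), 1 fell (POLE) and 38 did not pass the test (edgeR's quasi-likelihood test, Benjamini-Hochberg adjusted p below 0.05 over 14818 genes). That is 11.6% of the members, where 23.3% of all tested genes were called, 12.5% higher and 10.9% lower. Among the 8303 tested genes within the members' own abundance range (18.2 to 627 CPM), 31.1% were called, 19.9% higher and 11.2% lower. With upper-quartile scaling in place of TMM the members' calls were 3 higher and 7 lower, while all genes went from 1847 higher and 1609 lower to 1325 higher and 2087 lower.

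**Figure D1:**
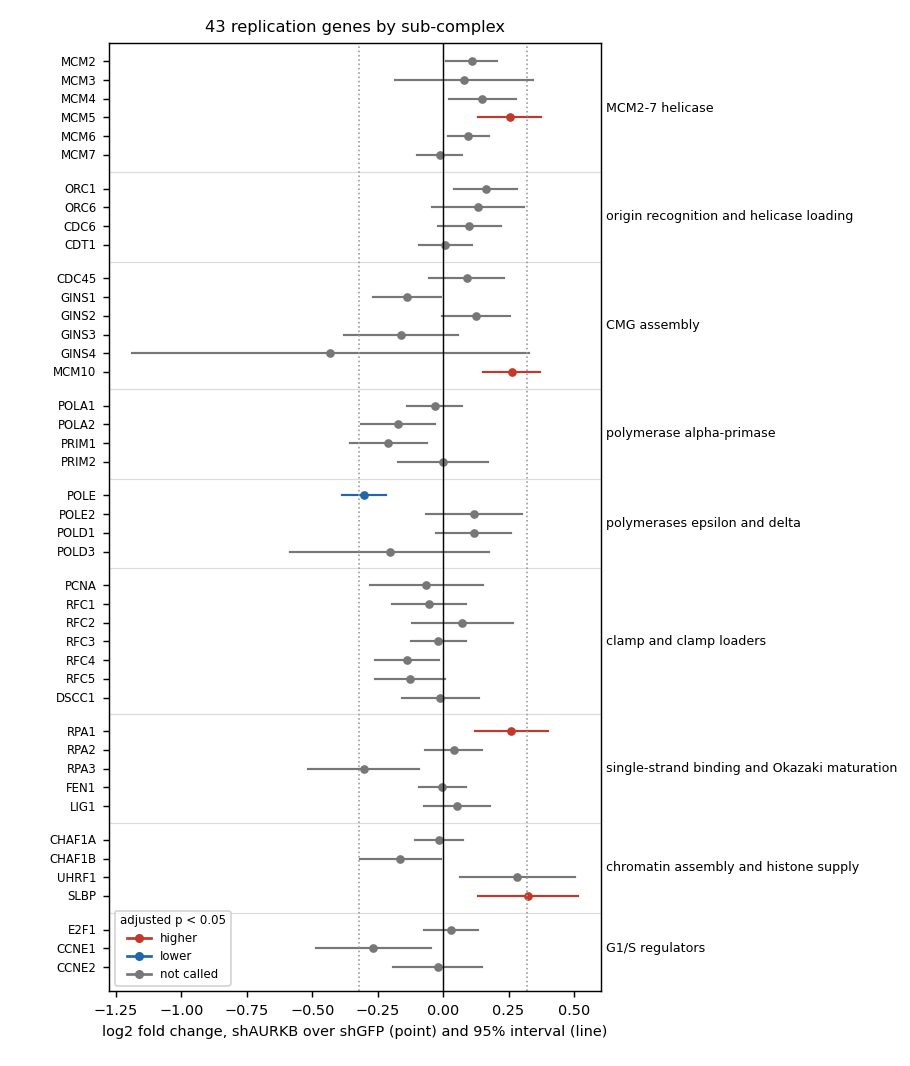
Log2 difference in CPM (shAURKB minus shGFP, x axis) of the 43 members by role, with points as estimates and bars as 95% intervals from 3 libraries per arm. Red marks the 4 called higher, blue the 1 called lower and grey the 38 not called, and dotted lines mark a 1.25-fold difference.

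The members' estimates were small and lay on both sides of 0. They were positive for 22 and negative for 21, with a median of 0.001 against -0.004 for all tested genes and 0.05 for genes in the same abundance range. The median absolute log2 difference was 0.12 in the members, 0.21 in all tested genes and 0.17 in the abundance range. An estimate of at least 1.25-fold either way was found for 2 members, GINS4 and SLBP (4.65%), against 31.7% of all tested genes and 21.8% of those in the range. The members are counted well: the lowest count of any member in any library was 151 and the highest 7751. Intervals show how far the uncalled members could have differed. The 95% interval lay wholly inside 1.25-fold for 30 members (69.8%), none of them called, against 24.1% of all tested genes and 39.9% of those in the range. It lay inside 1.5-fold for 42 of 43, the exception being GINS4. For 8 uncalled members, GINS4 among them, the interval reached past 1.25-fold, and a difference of that size stays within their error.

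**Figure D2:**
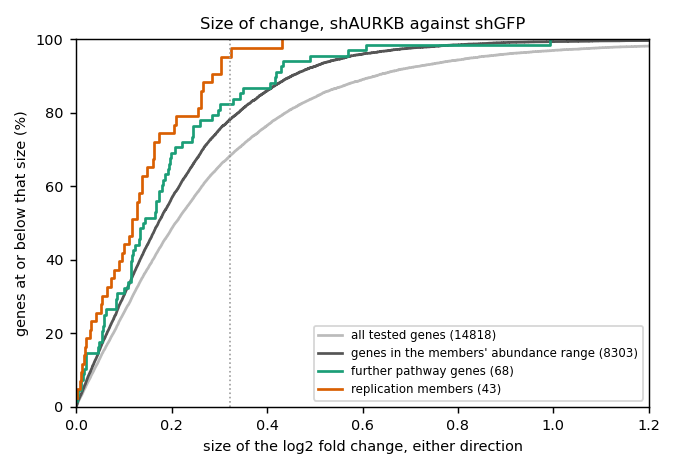
Share of genes (y axis, %) whose log2 difference between shAURKB and shGFP, in either direction, is at or below the size on the x axis, as stepped curves for the 43 members, the 68 further pathway genes, the 8303 tested genes in the members' abundance range and all 14818 tested genes. At the dotted line, a 1.25-fold difference, the curve stands at 95.3% for the members, 78.2% for the abundance range and 68.3% for all tested genes.

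The arms were also compared by whether their libraries overlapped. All 3 shAURKB libraries lay above all 3 controls for 11 members and below them for 9, together 46.5% of the set, against 42.6% of all tested genes and 50.8% of those in the abundance range. That share was near the background and is not a result about these genes. At an unadjusted p below 0.05 (edgeR) the members numbered 17, of which 9 were higher and 8 lower. That is 39.5% of the set, against 37% of all tested genes and 45.6% of those in the abundance range, again near the background.

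The MCM2-7 genes encode the ring-shaped helicase core. MCM5 (ENSG00000100297, chr22:35400063-35425430, plus strand) stood at 352, 362 and 400 CPM in the controls and at 450, 445 and 435 in shAURKB. The lowest shAURKB library was above the highest control, and the log2 difference was 0.25 ± 0.05 (95% interval 0.13 to 0.37, adjusted p = 0.0137 by edgeR). MCM4 had the highest counts of the 6, with 610, 565 and 598 CPM in the controls and 631, 705 and 630 in shAURKB. Its arms did not overlap, but the difference of 0.15 did not pass the test (adjusted p = 0.0897 by edgeR). MCM2 (0.11) and MCM6 (0.10) also lay higher in all 3 shAURKB libraries without passing, MCM7 was at -0.01 with an interval of -0.1 to 0.07, and MCM3 at 0.08. MCM3 was the least even of the ring genes, at 564, 674 and 552 CPM in the controls and 581, 580 and 729 in shAURKB, so that each arm had 1 high library. The summed level of the 6 genes was 3155, 3207 and 3217 CPM in the controls and 3329, 3481 and 3493 in shAURKB, a sum that no test was run on.

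Genes that mark origins and load the helicase gave no call, and all 4 intervals lay inside 1.25-fold. ORC1, the large ATP-binding subunit of ORC, had the largest difference of the group, at 93.9, 100 and 100 CPM in the controls and 111, 106 and 113 in shAURKB. The arms did not overlap, and the log2 difference was 0.16 ± 0.05 (adjusted p = 0.0617 by edgeR). CDT1, the loading factor that geminin inhibits, had the highest counts, with 263, 259 and 260 CPM in the controls and 266, 272 and 248 in shAURKB. These arms overlapped, with a difference of 0.01 and an interval of -0.09 to 0.11. CDC6, the ATPase that acts with CDT1, was at 0.10, and ORC6, the smallest ORC subunit, at 0.13.

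Among the genes that turn the loaded ring into the active helicase, MCM10 rose and the 5 others were not called. MCM10 (ENSG00000065328, chr10:13161554-13211104, plus strand), which helps activate the assembled helicase, stood at 109, 117 and 110 CPM in the controls and at 137, 131 and 134 in shAURKB. The arms were well apart, with a log2 difference of 0.26 ± 0.05 (interval 0.15 to 0.37, adjusted p = 0.00915 by edgeR), a 1.2-fold higher level. CDC45 was at 0.09, and the GINS subunits at -0.14 (GINS1), 0.13 (GINS2), -0.16 (GINS3) and -0.43 (GINS4), all uncalled. GINS4 had the widest interval of the 43 genes, -1.19 to 0.33, and its values were 73.7, 65.8 and 75.6 CPM in the controls and 69.3, 64.1 and 26.0 in shAURKB. The low value came from shAURKB replicate 3, and without that library the difference was -0.10 (adjusted p = 0.454 by edgeR). POLD3 was the other member for which that library stood apart, as given with the polymerases.

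Polymerase alpha-primase, which makes the RNA-DNA primers, gave no call. PRIM1, the catalytic primase subunit, showed 62.6, 71.1 and 68.6 CPM in the controls and 59.5, 57.7 and 57.7 in shAURKB. Its arms did not overlap and its difference of -0.21 ± 0.06 lay close to the threshold (adjusted p = 0.0534 by edgeR). PRIM1 was called lower in 6 of 16 alternative settings. POLA1, the catalytic polymerase subunit, had the highest counts, with 145, 145 and 138 CPM in the controls and 144, 139 and 136 in shAURKB. These arms overlapped (difference -0.03, interval -0.14 to 0.07). POLA2, the accessory B subunit, was at -0.17 (adjusted p = 0.0797 by edgeR) and PRIM2, the large primase subunit, at 0.00. POLA2 was called lower in 4 of 16 alternative settings. The summed level of the 4 genes was 329.8, 353.2 and 340.3 CPM in the controls and 320.5, 317.4 and 316.4 in shAURKB.

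The catalytic subunit of polymerase epsilon was the only member called lower. POLE (ENSG00000177084, chr12:132623753-132687365, minus strand) stood at 637, 592 and 611 CPM in the controls and at 489, 503 and 500 in shAURKB. The arms were far apart relative to their spread, and the log2 difference was -0.30 ± 0.04 (interval -0.39 to -0.22, adjusted p = 0.00216 by edgeR), a 1.23-fold lower level. POLE2, its second subunit, stood at 35.9, 30.8 and 33.8 CPM in the controls and at 34.8, 37.4 and 36.6 in shAURKB, which overlapped (0.12, adjusted p = 0.323 by edgeR). The small histone-fold subunits POLE3 and POLE4 come from the wider list of replication genes rather than the 43. POLE3 rose, from 181, 193 and 184 CPM in the controls to 219, 221 and 220 in shAURKB (0.24 ± 0.04, adjusted p = 0.0056 by edgeR). POLE4 had 21.0, 20.1 and 20.0 CPM in the controls and 26.9, 25.6 and 22.5 in shAURKB (0.30 ± 0.09), and its call at adjusted p = 0.0492 by edgeR held in 2 of 16 alternative settings. Of the 4 subunits of this enzyme, POLE was thus called lower, POLE3 and POLE4 higher, and POLE2 was not called. The count of POLE per count of POLE3 was 3.52, 3.07 and 3.32 in the controls and 2.23, 2.28 and 2.27 in shAURKB, and per count of POLE2 it was 17.8, 19.2 and 18.1 against 14.0, 13.4 and 13.7. These pairs were chosen after their values were seen, and the ratios carry no test.

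Polymerase delta gave no call. POLD1, its catalytic subunit, was at 0.12 with an interval of -0.03 to 0.26. POLD3, an accessory subunit, stood at 77.5, 75.8 and 75.3 CPM in the controls and at 71.7, 78.0 and 48.5 in shAURKB. As for GINS4, the low value lay in shAURKB replicate 3: the difference was -0.20 ± 0.16 with it (adjusted p = 0.401 by edgeR) and -0.02 without it.

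Of the PCNA clamp and its loaders, none of the 7 was called and all 7 intervals lay inside 1.25-fold. PCNA, the sliding clamp, stood at 602, 681 and 640 CPM in the controls and at 532, 624 and 685 in shAURKB. The arms overlapped (difference -0.06, interval -0.28 to 0.15). RFC4, a loader subunit, had the largest difference, with 74.8, 76.1 and 76.4 CPM in the controls and 67.0, 72.0 and 67.7 in shAURKB. These arms did not overlap, and the difference of -0.14 was not called (adjusted p = 0.0973 by edgeR). The other RFC subunits lay at -0.05 (RFC1), 0.07 (RFC2), -0.02 (RFC3) and -0.13 (RFC5), and DSCC1, a subunit of the alternative loader that serves cohesion, at -0.01.

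Of the 3 subunits of RPA, the complex that coats single-stranded DNA, 1 was called. RPA1 (ENSG00000132383, chr17:1829702-1900082, plus strand), the large DNA-binding subunit, stood at 275, 297 and 316 CPM in the controls and at 349, 373 and 342 in shAURKB. The arms did not overlap, and it rose by 0.26 ± 0.06 (interval 0.12 to 0.40, adjusted p = 0.0219 by edgeR). The call was lost without shGFP replicate 1 (adjusted p = 0.0519), without shGFP replicate 2 (0.0588) or without shAURKB replicate 2 (0.0661), each by edgeR. RPA2, the middle subunit, was at 0.04. RPA3, the small subunit, stood at 45.4, 44.2 and 39.2 CPM in the controls and at 38.0, 34.0 and 32.2 in shAURKB, a difference of -0.30 ± 0.09 just short of the threshold (adjusted p = 0.0505 by edgeR). It was called in 7 of 16 alternative settings. RPA3 overlaps UMAD1 on the opposite strand over 77897 bases, and UMAD1 held 379, 355 and 351 reads in the controls and 276, 262 and 259 in shAURKB. No source used here states the strand setting of the counting, so the reads of these genes cannot be told apart. RPA1 shares 933 bases with SMYD4 on the opposite strand.

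The genes that finish Okazaki fragments were not called. FEN1, the flap nuclease, was at 0.00 with an interval of -0.09 to 0.09, and LIG1, the ligase that seals nicks, at 0.05. FEN1 shares 4265 bases with FADS2 on the same strand, which bears on how its reads were assigned. In all, 20 members overlap another gene with at least 10 counts in a library, 7 of them on the same strand. Of the 5 called members, RPA1 is the only one among these 20.

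SLBP, which binds the stem-loop of replication-dependent histone mRNAs, rose in the chromatin group. SLBP (ENSG00000163950, chr4:1692800-1712555, minus strand) stood at 154, 155 and 156 CPM in the controls and at 220, 187 and 175 in shAURKB. The controls were nearly equal, all 3 shAURKB libraries were higher with replicate 1 highest, and the log2 difference was 0.32 ± 0.08 (interval 0.13 to 0.52, adjusted p = 0.0301 by edgeR). The call held in 7 of 16 alternative settings and was lost when any control was left out (adjusted p = 0.0757 to 0.0799 by edgeR) or without shAURKB replicate 2 (0.0599). UHRF1, which brings DNMT1 to newly copied DNA, had the highest counts of the group, with 322, 314 and 324 CPM in the controls and 454, 357 and 357 in shAURKB. The arms did not overlap, and the difference of 0.28 ± 0.09 was not called (adjusted p = 0.0674 by edgeR). Without shAURKB replicate 1, the highest library, the difference was 0.16 and was called (adjusted p = 0.0329 by edgeR). The CAF-1 subunits, which deposit histones behind the fork, lay at -0.02 (CHAF1A) and -0.16 (CHAF1B).

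**Figure D3:**
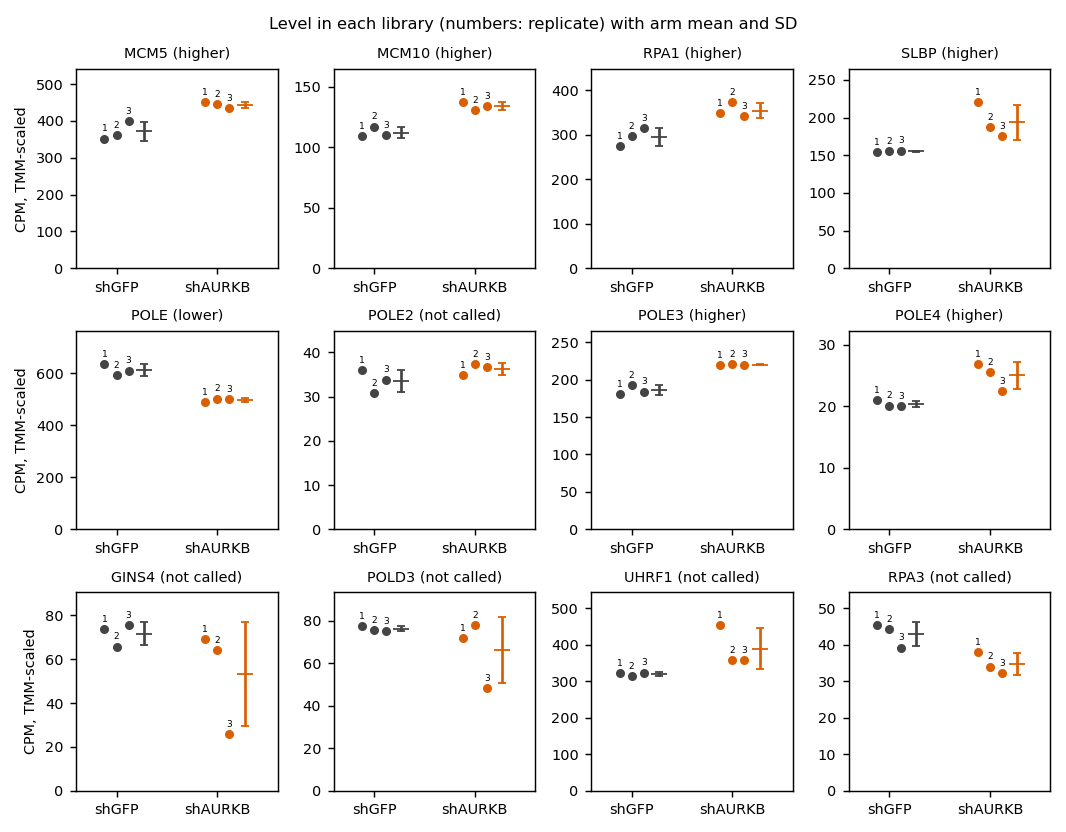
TMM-scaled CPM (y axis from 0, a separate scale for each gene) in each library of the 5 called members, 5 uncalled members and the wider-list genes POLE3 and POLE4, with points numbered by replicate and bars for the mean and SD of each arm. POLE lies lower in all 3 shAURKB libraries, and GINS4 and POLD3 each have 1 low library, shAURKB replicate 3.

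The G1/S regulators were not called. E2F1, the activator E2F whose own promoter match is shown above, had the highest counts, with 145, 146 and 145 CPM in the controls and 147, 144 and 155 in shAURKB. The arms overlapped (0.03, interval -0.07 to 0.13). CCNE1, which encodes cyclin E1, stood at 20.4, 18.9 and 19.8 CPM in the controls and at 17.2, 14.7 and 17.3 in shAURKB, without overlap, and its difference of -0.27 ± 0.09 did not pass (adjusted p = 0.0803 by edgeR). CCNE2, for cyclin E2, was at -0.02.

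Levels of different genes were compared on the deposited FPKM, which divide by a single length per gene. The orders that follow all rest on those lengths. In the controls PCNA had the highest level, 360 FPKM on average, 10.0 times that of RFC3, the next in its group at 35.9. Within the MCM2-7 ring the order was MCM6 (137), MCM3 (113), MCM2 (65.3), MCM7 (61.1), MCM4 (51.3) and MCM5 (41.0), with no overlap between neighbours over the 3 control libraries. In shAURKB MCM7 and MCM4 overlapped. In CPM, MCM6 and MCM7 averaged 596 and 590 in the controls, so the gap between them in FPKM comes from the lengths used. CDT1 led the loading group at 69.5, above ORC1 (25.3), CDC6 (17.9) and ORC6 (7.49). GINS2 (26.0) led the assembly group, with GINS3 lowest at 5.35. The levels of the 4 GINS subunits, which sit in 1 complex in equal number, thus differed on this scale, and they rest on the single length used per gene. POLA1 (17.9) and PRIM1 (16.2) stood above POLA2 (11.4) and PRIM2 (6.54).

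On the FPKM scale the order of the polymerase catalytic subunits changed between the arms. POLE stood at 25.3 ± 0.96 FPKM (SD, n = 3) in the controls, above POLD1 at 22.8 ± 1.34, with no overlap. In shAURKB POLE stood at 19.8 ± 0.29 and POLD1 at 23.8 ± 1.4, again with no overlap and in the opposite order. This order rests on the single length used per gene. In CPM, which do not divide by length, POLE averaged 613 in the controls and 497 in shAURKB. POLD1 averaged 184 and 199 CPM, below POLE in both arms. The difference between the changes of these genes was not tested. E2F1 (59.1) stood far above CCNE2 (9.63) and CCNE1 (4.12), and SLBP (34.6) and CHAF1A (34.5) overlapped in the controls.

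**Figure D4:**
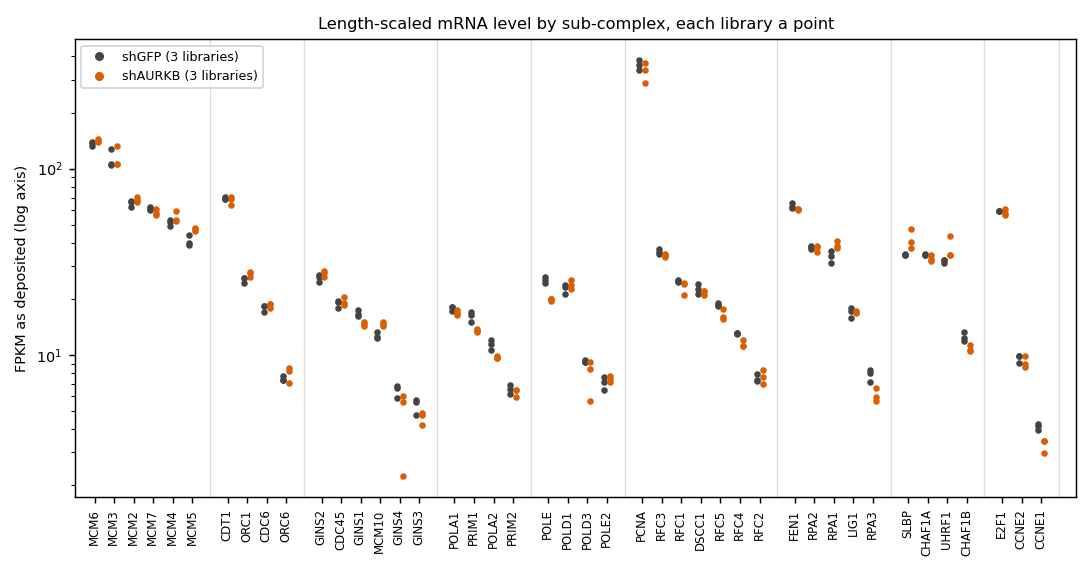
Deposited FPKM of the members by role (log axis), with points for each of the 3 shGFP and 3 shAURKB libraries. PCNA is highest at 360 FPKM on average in the controls and CCNE1 lowest at 4.12.

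A list of 68 further replication genes (other subunits, origin firing, fork protection, Okazaki processing, chromatin behind the fork, and the E2F and RB family) was read in the same test. This list too was chosen with earlier results of these data known. All 68 were tested, and 10 rose and 10 fell (29.4% called, against 23.3% of all tested genes). Among tested genes in the members' abundance range 31.1% were called, so the share of the wider list lay between these backgrounds. That range was set by the members and not by this list. With upper-quartile scaling 7 of the 68 rose and 14 fell, and without shAURKB replicate 1 the rises numbered 6. The genes that rose were POLE3, POLE4, CCNA2 (cyclin A2), CDC25A (the phosphatase that activates CDK2), TIPIN, TOP1 and TOP2A (topoisomerases), POLB (the repair polymerase), TONSL and RB1. Those that fell were ATAD5 (the PCNA unloader), CDC7 (the kinase that fires origins), TOPBP1, TIMELESS, DNMT1, NPAT (the activator of histone transcription), E2F2, E2F5, E2F7 and TFDP2. Among 13 genes of origin firing, CDC7 fell by 0.42 on the log2 scale (adjusted p = 0.00372 by edgeR) while CDC25A rose by 0.26 (adjusted p = 0.0134). TIMELESS and TIPIN, partners in the fork protection complex, were called in opposite directions, at -0.19 and 0.43. Over the 16 alternatives the call held in 2 for POLE4, 5 for TONSL, 7 for CCNA2, 8 for ATAD5, 11 for POLB and for TIMELESS, 12 for TOPBP1, and 14 or more for the others. CCNA2, TOP1, RB1, NPAT, E2F5, ATAD5, DNMT1 and POLE3 each overlap another gene with at least 10 counts in a library.

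**Figure D5:**
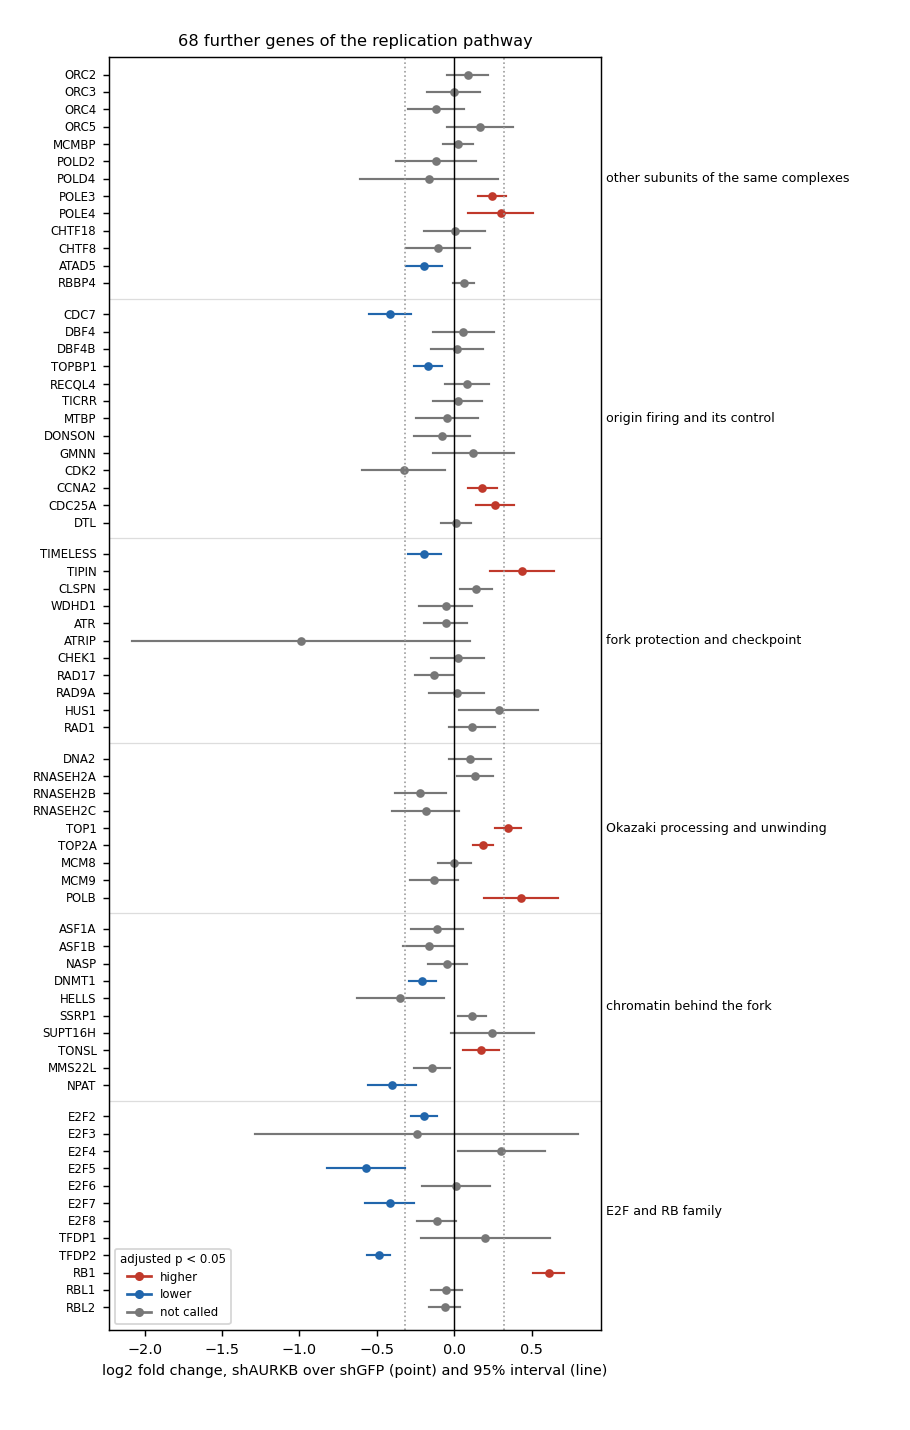
Log2 difference in CPM (shAURKB minus shGFP, x axis) of the 68 wider replication genes by role, with points as estimates and bars as 95% intervals from 3 libraries per arm. Red marks the 10 called higher and blue the 10 called lower, and dotted lines mark 1.25-fold.

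Of the 4 called wider genes with the largest differences, RB1, E2F5 and TFDP2 belong to the E2F and RB family and TIPIN to fork protection. Of the 12 E2F and RB family genes beyond E2F1, 1 rose, 4 fell and 7 were not called, where 12.5% of all tested genes were called higher and 10.9% lower. Counts in a list of 12 are given as a description. RB1, the retinoblastoma protein that restrains E2F, stood at 203, 214 and 204 CPM in the controls and at 327, 314 and 306 in shAURKB (0.61 ± 0.04, adjusted p = 0.000372 by edgeR). TFDP2, a dimer partner of E2F proteins, stood at 503, 528 and 515 CPM in the controls and at 365, 367 and 370 in shAURKB (-0.49 ± 0.03, adjusted p = 0.000276 by edgeR). Neither pair of arms overlapped. E2F5, an E2F that acts mainly in repression, had 42.9, 47.2 and 46.5 CPM in the controls and 25.9, 32.9 and 33.3 in shAURKB (-0.57 ± 0.11, adjusted p = 0.0108 by edgeR). TIPIN had 17.4, 20.9 and 19.5 CPM in the controls and 25.0, 26.4 and 26.6 in shAURKB (0.43 ± 0.09, adjusted p = 0.0142 by edgeR). E2F1 lay within 1.25-fold in the same libraries.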

How the data were processed

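RNA of 6 CUTLL1 libraries was analysed, with groups and replicate numbers from the sample titles. Raw read counts, 1 whole number for each Ensembl gene and library, were deposited by the authors. FPKM values of these genes were deposited by the authors as well. HISAT2 2.0.4, StringTie 1.3.0 and edgeR on GRCh38 (hg38) are named per the submitters' processing notes. What each tool did, the strand setting and the treatment of multi-mapping reads are details not given in the sources used here.

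filterByExpr kept 14818 genes (at least 10 counts, at least 15 in total). After TMM scaling (factors 0.979 to 1.02) the arms were compared with edgeR 4.0.16 (R 4.3.3), two-sided, by its quasi-likelihood test fitted on all 6 libraries with the arm as only term. P-values were adjusted by Benjamini-Hochberg across the 14818 genes, and a gene was called below 0.05. Unless another tool is named, an adjusted p in the text is from that fit. Standard errors came from the model's information matrix and moderated quasi-dispersion, with 95% intervals on the same degrees of freedom. The biological coefficient of variation was 0.127. Replicates of an arm differed by a chi-square of 6.922 to 7.908 per degree of freedom, and none was a copy. The fit was also run on counts simulated from the libraries' mean levels and the fitted dispersions. Such a run cannot show that the model holds for these libraries. Of the members, 42 of 43 had the position of GENCODE release 29 (exception POLD1). ATRIP of the wider list has 2 identifiers, and the one with an HGNC entry was used. Promoter sequences are from RefSeq on GRCh38.p14.

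The members and lists were chosen with earlier results of these data known. Values per library are given for called members and, in each role, for the member with the largest absolute difference and the one with the highest CPM. Of the wider list, called genes are named, and the 4 called genes with the largest absolute difference have values. The others given by library were picked with their values in view. The arms were compared again with RLE scaling, with upper-quartile scaling, by DESeq2 1.42.0, by limma-voom (limma 3.58.1), without a filter, with a minimum of 1 CPM in 3 libraries, with a replicate block, and after leaving out each library. FPKM were compared by limma-trend on log2(FPKM + 1), keeping genes of at least 0.5 FPKM in 3 libraries, and again with a pseudocount of 0.1 or without that minimum.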

Additional observations from a re-analysis of the deposited data

How the results depend on the processing

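POLE and MCM10 were called, with the same direction, in all 16 alternatives, MCM5 in 15, RPA1 in 10 and SLBP in 7. The replicate block gave 3 members higher and 2 lower, losing SLBP (adjusted p = 0.0511 by edgeR) and gaining RPA3. It gave 1027 lower among all genes. Deviations from the arm means correlated at r = -0.0914, -0.0679 and -0.0424 between same-numbered libraries. Between differently numbered libraries of the arms r was -0.054 to 0.119. Values this small cannot show whether the numbers pair the libraries. Members called higher numbered 2 on log2(FPKM + 1) and log2(FPKM + 0.1) and 1 without the FPKM filter, and 2 to 5 with 1 library left out. Members called lower numbered 7 with upper-quartile scaling and in both filtered FPKM fits. In each of those fits the 7 were POLE, POLA2, PRIM1, RFC4, RPA3, GINS1 and CCNE1. Members called lower numbered 3 without the FPKM filter and with the 1 CPM filter, and 1 to 3 with 1 library left out. Wider genes called higher numbered 4 without the FPKM filter and 6 to 8 with 1 library left out. Over all genes, 914 were higher without the FPKM filter, 1065 were lower by DESeq2, and 998 to 1056 were lower with 1 library left out. The members' median log2 difference was -0.0531 with upper-quartile scaling, -0.0435 on log2(FPKM + 1) with and without the filter, -0.0488 on log2(FPKM + 0.1), and -0.00892 to 0.0327 with 1 library left out. Upper-quartile scaling moved the median of all genes to -0.0581. The cause of these differences was not tested.

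Of 688 member values under alternatives, 597 kept their direction and side of the threshold, 16 lost a call, 29 gained one, and 46 changed sign, in 14 members, none of them called there. With upper-quartile scaling these were CDT1 (-0.0456), PRIM2 (-0.0531), RPA2 (-0.0127), LIG1 (-0.00168) and E2F1 (-0.0256). On log2(FPKM + 1), with and without the filter, they were CDT1 (-0.0435), PRIM2 (-0.0429), RPA2 (-0.0104) and E2F1 (-0.0232), and with the pseudocount of 0.1 they were -0.0441, -0.0488, -0.0107 and -0.0236. DESeq2 gave MCM7 (0.000884), DSCC1 (0.00314) and FEN1 (0.0103), and no filter gave 0.000205, 0.00219 and 0.00989. PRIM2 was at -0.0026 by limma-voom and -0.00419 with the 1 CPM filter.
With 1 library left out the ranges of the members that changed sign were MCM3 -0.0363 to 0.177, MCM7 -0.036 to 0.0155, CDT1 -0.0157 to 0.0499, PRIM2 -0.0371 to 0.0454, PCNA -0.147 to 0.0327, RFC1 -0.0853 to 0.0137, RFC3 -0.0381 to 0.00483, DSCC1 -0.0502 to 0.036, FEN1 -0.0217 to 0.0295, CHAF1A -0.0438 to 0.0083, E2F1 -0.000437 to 0.055 and CCNE2 -0.0769 to 0.0257. The lowest count of a member in a library was 151, and the shares of counting error and of spread between libraries in each interval were not separated.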
